A study of Mus musculus with 16 samples.

Results

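Adding siSfpq, a small interfering RNA against Sfpq mRNA, to cells that carried a let-7a mimic was examined by comparing the samples labelled let-7a + siSfpq with those labelled let-7a. The comparison holds 8 of the 16 arrays of the series, 4 of let-7a + siSfpq and 4 of let-7a, and all genes of the array were followed. The cells are P19, a mouse embryonal carcinoma line, and the other 8 arrays hold control and siSfpq cells without the mimic. Per the methods, oligonucleotides were transfected at 24 nM and total RNA was taken after 48 h. The array methods do not say whether the let-7a cells also received a control siRNA, as the cells of the same condition did in the study's Argonaute HITS-CLIP, a sequencing of RNA bound by the protein. The let-7a + siSfpq cells are a model of a transient and partial knockdown.

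MicroRNAs such as let-7a guide Argonaute proteins to messenger RNAs that pair with the seed near the 5′ end of the microRNA, which lowers the level or the translation of these messengers. The let-7 family is low in stem cells and rises as they differentiate. Sfpq is a nuclear RNA-binding protein that forms a complex with its paralogues Nono and Pspc1, takes part in splicing and transcription, and builds paraspeckles around the long non-coding RNA Neat1. P19 cells divide as undifferentiated cells and can be turned into neurons. The transfected microRNA is shown with 3 relatives that share its seed, because the seed decides which messengers can be paired. The RefSeq table of mature mouse microRNAs (GRCm38.p6) names 11 with this seed, 9 of them called let-7. Bases 2 to 8, the seed, are in capitals.
mmu-let-7a-5p: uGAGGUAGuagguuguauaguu
mmu-let-7b-5p: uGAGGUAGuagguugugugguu
mmu-let-7i-5p: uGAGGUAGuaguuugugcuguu
mmu-miR-98-5p: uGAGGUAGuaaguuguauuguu

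Within a condition, arrays 1 and 2 were about as far apart as spots of 1 probe on 1 array and were averaged, which left 3 samples per condition, namely, replicates 1 and 2 as 1 sample, replicate 3 and replicate 4. Values of 3 samples are given in that order. Levels are log2 fluorescence intensities after quantile normalization, and every rise or fall given without a fold is a difference on this log2 scale. Between 35922 and 38464 of 59305 spots were well above background on the 8 arrays, and 19569 genes were tested. The methods name 3 replicates of transfected cells per condition, and no source says which of the 4 arrays these are or whether the cultures were separate, so p-values measure the spread between these samples only. All 8 embryonal carcinoma markers, Pou5f1, Sox2, Nanog and Lin28a among them, were well above background on all 8 arrays in at least 1 probe, and 7 of them in every probe, with a summed linear intensity of 41839 to 58105 in the let-7a samples and 58086 to 63636 in the let-7a + siSfpq samples. So were all 8 neuron markers, whose summed linear intensity was 47548 to 61500 in the let-7a samples and 32212 to 35510 in the let-7a + siSfpq samples. The 8 fibroblast markers gave sums of 7293 to 8791 and 13647 to 15942, most of it Dcn, which encodes the matrix protein decorin and was the 1 called fibroblast marker (rise of 1.17, limma adjusted p = 0.0120). Also above background on all 8 arrays were 7 of 8 glia markers, 4 of the 7 blood markers on the array and 4 of 8 trophoblast markers. So were 3 of 8 primitive endoderm markers and 3 of 8 muscle markers, while 4 of the muscle markers were above background on no array. A signal above background therefore does not by itself mark a cell type here. In bulk RNA, fewer cells of a type and less RNA per cell cannot be told apart, and the part of these markers in the results was not tested.

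The knockdown of the targeted messenger was partial in cells with the mimic. The log2 level of Sfpq was 12.04, 11.997 and 11.90 in let-7a and 11.31, 11.49 and 11.41 in let-7a + siSfpq. The groups did not overlap, and 67.1% of the let-7a level remained. The log2 difference was -0.58 (SE 0.19, 95% confidence interval -0.997 to -0.15), which did not pass the test over all genes (limma adjusted p = 0.153, exact permutation p = 0.1, two-sided, the smallest that 3 samples against 3 allow). With the replicate as a block the limma adjusted p was 0.0528, and without replicate 3 it was 0.00117 for a difference of -0.61. A fit without replicate 3 keeps only replicates 1 and 2, averaged, and replicate 4 in each condition. It leaves out the sample furthest from the others. Its p-values, here and below, show how far results depend on that replicate and are not firmer for being smaller. In cells without the mimic, siSfpq left 45.6% of the control level (log2 difference -1.13, limma adjusted p = 0.00808). The difference between these effects was 0.56 (SE 0.27) and did not pass (limma adjusted p = 0.848, and 0.287 in the blocked fit). The samples gave 0.785, 0.015 and 0.871, and siSfpq alone changed Sfpq by -0.518 in replicate 3 against -1.516 and -1.363 in the others. Without replicate 3 the difference between the effects was 0.83 and passed (limma adjusted p = 0.00225). The probes of Sfpq gave -0.72 and -0.43 with the mimic.

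**Figure D1:**
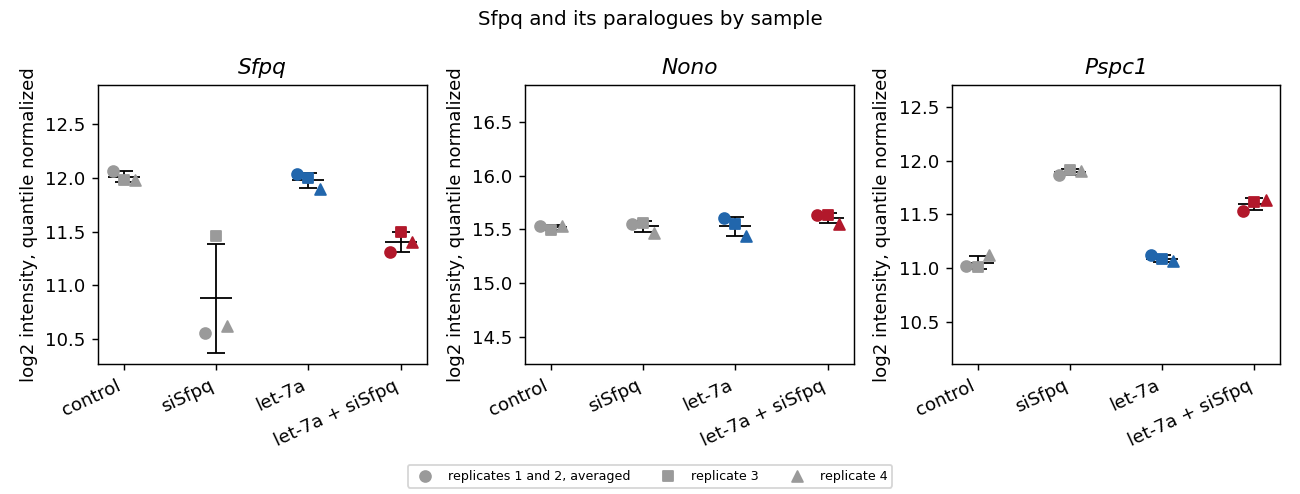
Log2 intensity of Sfpq, Nono and Pspc1 (vertical axes of equal span) in the 3 samples of each condition, with the mean and the SD. The let-7a + siSfpq samples of Sfpq lie below the let-7a samples and those of Pspc1 lie above them.

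The paralogue Pspc1 rose. Its level was 11.12, 11.09 and 11.06 in let-7a and 11.53, 11.62 and 11.63 in let-7a + siSfpq, an increase of 1.42-fold without overlap (log2 difference 0.50, SE 0.08, limma adjusted p = 0.0112). In cells without the mimic it rose by 0.85 on the log2 scale (limma adjusted p = 0.00250). Nono differed by 0.08 (SE 0.07, 95% confidence interval -0.07 to 0.22, limma adjusted p = 0.710). Neat1 was 8.91, 8.80 and 8.77 in let-7a and 9.79, 8.67 and 9.70 in let-7a + siSfpq, so that replicate 3 lay below the let-7a samples and the others above them (limma adjusted p = 0.295, and 0.000727 without replicate 3). Of the 16 measured genes of the Sfpq complex and of paraspeckles, Pspc1 alone passed the test, and their median difference was 0.05.

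Over all genes, siSfpq added to the mimic raised 159 and lowered 395 relative to let-7a alone at a limma adjusted p under 0.05, which is 0.813% and 2.02% of the genes tested. These are the genes called higher or lower, or said to rise or fall, in what follows. All 554 called genes moved the same way in 3 of 3 samples and did not overlap between the groups, as was so for 22.3% of all genes. The median difference of the called genes was 0.88 for those higher and -1.20 for those lower, against 0.03 for all genes. More than 2-fold changes were seen in 65 of the genes called higher and in 254 of those called lower. The number of calls depended on the replicates. With the replicate as a block, 1073 genes were higher (5.48%) and 1321 lower (6.75%), including all 554 called without it. Replicate 3 stands apart from the others in every condition. Without it, 2465 genes were higher (12.6%) and 2397 lower (12.2%), including 553 of the 554. Only the averaged replicates 1 and 2 and replicate 4 then remain in each condition. Without replicate 4, limma called 0 genes, 958 had an unadjusted p under 0.05, and 554 of 554 kept their direction.

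**Figure D2:**
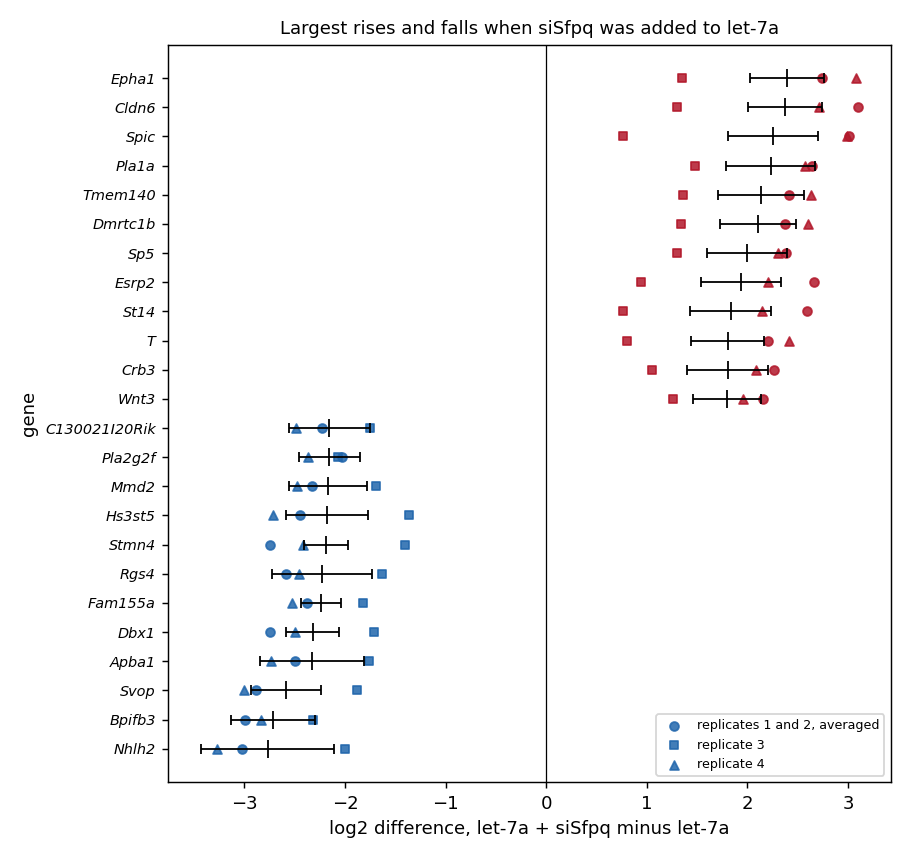
Log2 difference between let-7a + siSfpq and let-7a for the 12 largest rises and the 12 largest falls (horizontal axis), with each replicate as a point and the fitted mean with its SE as a bar. Replicate 3 gave the smallest difference in all of these genes but Pla2g2f.

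Where the signal was well above background on each of the 8 arrays, the largest falls included genes of neurons. Nhlh2, a basic helix-loop-helix factor of young neurons, was 9.94, 9.65 and 10.11 in let-7a and 6.92, 7.64 and 6.83 in let-7a + siSfpq, a fall of 6.81-fold (log2 difference -2.77, SE 0.66, limma adjusted p = 0.0497). This call was lost with the slide as a block (limma adjusted p = 0.0543), without replicate 2 (0.0597), without an intensity trend (0.0638) and without the filter on dim probes (0.115). Svop, a synaptic vesicle protein, was 8.28, 7.37 and 8.43 in let-7a and 5.40, 5.49 and 5.42 with siSfpq added (log2 difference -2.59, SE 0.35, limma adjusted p = 0.00572). Stmn4, a stathmin that binds tubulin, was 13.64, 12.81 and 13.51 in let-7a and 10.90, 11.41 and 11.09 with siSfpq added (log2 difference -2.19, SE 0.22, limma adjusted p = 0.00250). In each of these genes, the lowest let-7a sample lay more than 1 log2 unit above the highest let-7a + siSfpq sample. Apba1, an adaptor of the presynaptic terminal, fell by 2.33, and Fam155a, which takes part in the sodium leak channel complex, fell by 2.24. Dbx1, a homeobox gene of neural tube progenitors, fell by 2.32, and Rgs4, which quenches G protein signals, fell by 2.22. Hs3st5, an enzyme that sulfates heparan sulfate, fell by 2.17. Bpifb3, Mmd2, Pla2g2f (a secreted phospholipase) and the transcript C130021I20Rik fell by 2.72, 2.17, 2.16 and 2.16. The limma adjusted p values of these 9 genes lay between 0.00249 and 0.0388. With normexp, a different correction of the background, the falls of Bpifb3, Hs3st5, Mmd2 and C130021I20Rik were 1.31, 0.96, 1.02 and 1.13, and those of Apba1 and Svop were 1.52 and 1.69, all still called. Rgs4 lost its call with the brightest probe per gene (limma adjusted p = 0.0524), without an intensity trend (0.0505) and without the filter on dim probes (0.095), Apba1 without replicate 1 (0.0661) and without the filter (0.0905), C130021I20Rik without replicate 2 (0.0517) and without the filter (0.0515), and Hs3st5 without the filter (0.0516). On the authors' values Bpifb3, Hs3st5, Mmd2 and C130021I20Rik fell by 1.72, 1.26, 1.38 and 1.45.

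The largest rises included genes of epithelia and of the early embryo. Epha1, an ephrin receptor, was 6.34, 6.77 and 6.16 in let-7a and 9.08, 8.12 and 9.24 in let-7a + siSfpq, a rise of 5.25-fold (log2 difference 2.39, SE 0.37, limma adjusted p = 0.0112). Cldn6, a tight junction claudin of embryonic epithelia, was 5.93, 6.28 and 6.01 in let-7a and 9.02, 7.58 and 8.72 with siSfpq added (log2 difference 2.37, SE 0.37, limma adjusted p = 0.0112). In both, replicate 3 rose least and still lay above every let-7a sample. Crb3, a member of the Crumbs polarity complex, rose by 1.80, St14, which encodes the membrane protease matriptase, by 1.83, and Esrp2, a splicing regulator of epithelial cells, by 1.94. All 3 lost their call with normexp, where the differences were 0.87, 1.03 and 0.82 (limma adjusted p = 0.0889, 0.0676 and 0.0506), and on the authors' values, where they were 1.18, 1.302 and 1.17 (limma adjusted p = 0.0506, 0.0567 and 0.0519). Spic, an Ets family transcription factor, rose by 2.25, the phospholipase gene Pla1a by 2.23, Tmem140 by 2.14 and Dmrtc1b by 2.10. With normexp these rises were 1.53, 1.60, 1.54 and 0.95, and that of Cldn6 was 1.63 (all called). Dmrtc1b rose by 1.26 on the authors' values, and the linear fold of Spic was over 1.5 times as large without replicate 3. Sp5, a zinc finger gene turned on by Wnt signals, was 8.15, 7.55 and 8.18 in let-7a and 10.53, 8.85 and 10.48 with siSfpq added, a rise of 3.98-fold (SE 0.40 on the log2 scale, limma adjusted p = 0.0256). T (Brachyury) and Wnt3 complete the 12 and are described with their lists. Sp5, Wnt3, Esrp2 and St14 lost their call when only the 2 conditions were fitted (limma adjusted p = 0.0672, 0.0575, 0.0574 and 0.0575), and St14 also with 75th percentile scaling (0.06). Without the filter on dim probes, 15 of the 24 largest rises and falls lost their call, and of the rises only Epha1 and Cldn6 kept it. Wnt3, Sp5, T, Spic, Pla1a, Tmem140 and Dmrtc1b then had a limma adjusted p of 0.0501 to 0.0687.

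In some called genes the level in 1 of the conditions was not well above background on any array, and only a bound can be given. Such genes were 10 of those higher and 12 of those lower. Cep295nl was at least 5.13-fold higher in let-7a + siSfpq (limma adjusted p = 0.00301), Cfc1, a coreceptor for Nodal, at least 4.42-fold higher (limma adjusted p = 0.0311) and Cyp1a1, a cytochrome of the aryl hydrocarbon response, at least 2.70-fold higher (limma adjusted p = 0.0102). The transcript 1500004A13Rik was at least 6.17-fold lower (limma adjusted p = 0.0152), Nyap2 at least 4.35-fold lower (limma adjusted p = 0.00702) and Gria2, a subunit of AMPA glutamate receptors, at least 3.23-fold lower (limma adjusted p = 0.00571). The bound sets the bright mean against the higher of the dim probe's own signal and the lowest signal well above background on each array. These bounds hold for the background-subtracted intensities used here and not for the other settings. With normexp, Cep295nl and Cyp1a1 differed by 0.88 and 0.43, and 1500004A13Rik, Nyap2 and Gria2 by -0.96, -0.73 and -0.68, all called. On the authors' values the differences of these genes were 1.32, 0.63, -1.42, -1.11 and -1.19, all called. Cfc1 lost its call in both, at 0.79 (limma adjusted p = 0.124) and 1.11 (limma adjusted p = 0.0636).

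The promoters of 1 falling proneural factor and 1 rising Wnt target are shown, chosen because they hold searched motifs. The sequences are the windows of the RefSeq promoter table around the gene start, in the build GRCm38.p6. Searched on both strands were the E-boxes CAGCTG and CAGATG, bound by proneural factors, CTTTGAT, bound by TCF and LEF factors, and TCACACC, bound by T-box factors. No 2 matches overlap in the windows shown, and matches are in capitals. CAGCTG occurs in 15.3% of the 12442 promoters matched to a tested gene, CAGATG in 12.5%, CTTTGAT in 2.56% and TCACACC in 3.62%. A match is a stretch of letters and was not tested for binding. Nhlh2 (chr3:102009895-102010194, plus strand) holds both E-boxes and Sp5 (chr2:70474673-70474972, plus strand) holds CTTTGAT. Of the other promoters of falling factors, those of Isl1 and Sox11 hold CAGCTG and those of Myt1l and Hand2 hold CAGATG. Those of the falling factors Neurod1, Neurod4, Neurog2, Myt1, Ebf1 and Ebf3 and of the rising genes Wnt3 and Wnt6 hold none of the motifs, and those of the falling genes Dclk1 and Stmn3 hold CTTTGAT. E-boxes also lie in promoters of rising genes, CAGCTG in T and Tmem140 and CAGATG in Epha1 and Gsc. Among genes called lower CAGCTG occurs in 21.7% of 272 promoters and CAGATG in 15.4%, and among genes called higher in 12.6% and 10.1% of 119. CTTTGAT occurs in 4.04% of those called lower and 3.36% of those called higher, and TCACACC in 3.68% and 3.36%. These shares are a description without a test.
Nhlh2: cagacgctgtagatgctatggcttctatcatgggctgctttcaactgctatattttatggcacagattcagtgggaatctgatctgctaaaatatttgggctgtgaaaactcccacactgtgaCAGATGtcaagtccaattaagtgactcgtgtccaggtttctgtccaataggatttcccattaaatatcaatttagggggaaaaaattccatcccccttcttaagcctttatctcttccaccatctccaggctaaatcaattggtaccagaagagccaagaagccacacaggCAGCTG
Sp5: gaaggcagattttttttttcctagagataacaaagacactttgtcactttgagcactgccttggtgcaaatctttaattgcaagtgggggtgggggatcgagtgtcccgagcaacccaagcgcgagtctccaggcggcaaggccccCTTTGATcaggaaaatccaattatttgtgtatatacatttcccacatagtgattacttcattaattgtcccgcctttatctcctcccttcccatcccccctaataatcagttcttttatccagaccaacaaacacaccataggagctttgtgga

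**Figure D3:**
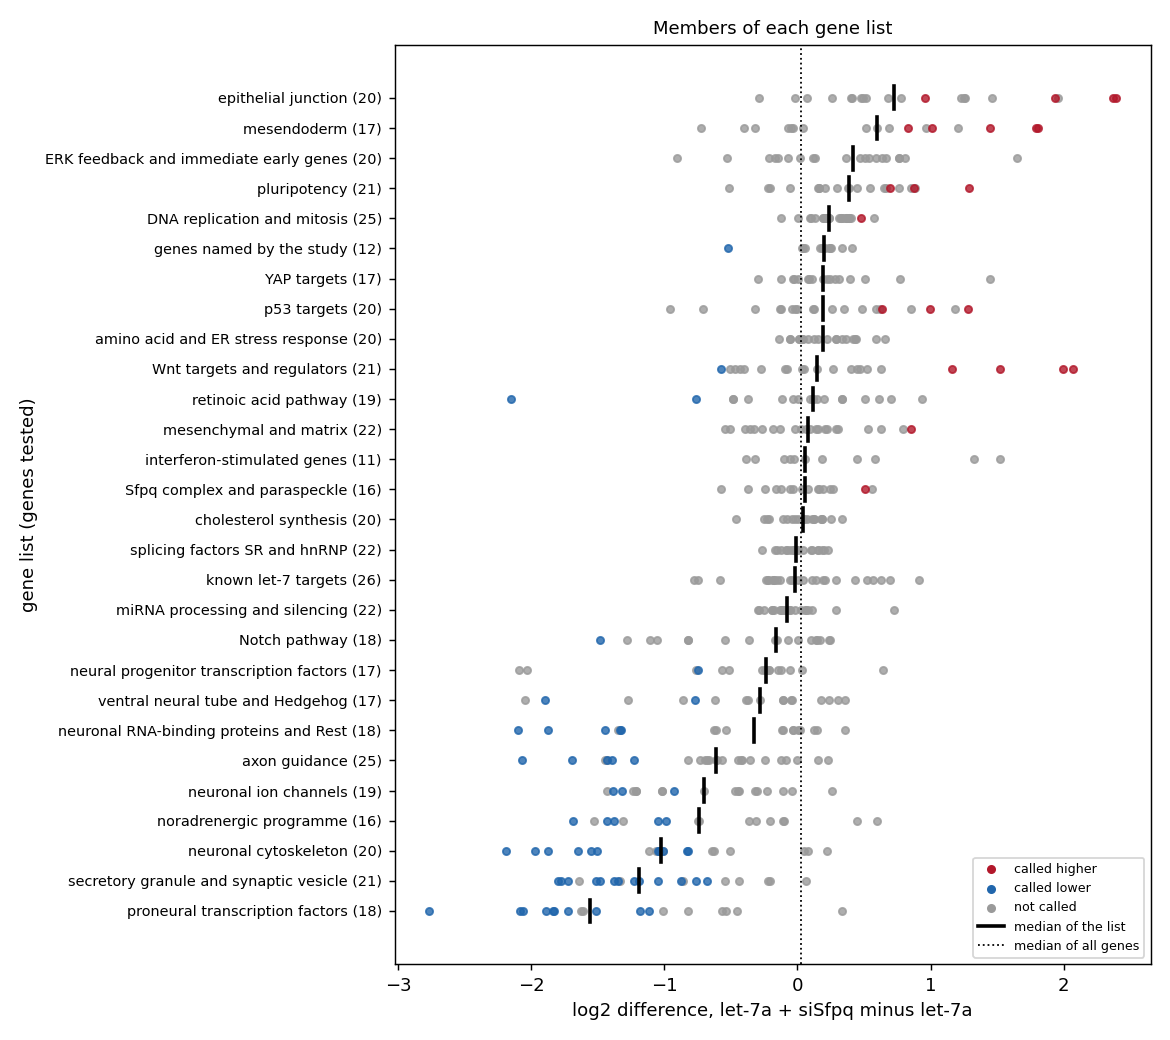
Log2 difference between let-7a + siSfpq and let-7a for each measured member of 28 gene lists (horizontal axis), with called members in colour, the median of each list as a bar and the median of all genes as a dotted line. The proneural, secretory and neuronal cytoskeleton lists have the lowest medians, and the epithelial junction list has the highest, 0.73.

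Each of the neuronal lists held members that fell and none that rose, against the 2.02% of all genes called lower. Counts of a list with the replicate block stand against 5.48% of all genes higher and 6.75% lower. Those without replicate 3 stand against 12.6% higher and 12.2% lower, here and in every list below. List members that were off the array or did not pass the filter on dim probes are not counted. Of 18 measured proneural transcription factors, 10 fell and 0 rose, with a median of -1.56. Neurod4 was 7.23, 6.85 and 7.41 in let-7a and 5.43, 5.32 and 5.25 with siSfpq added (log2 difference -1.83, SE 0.24, limma adjusted p = 0.00562). The samples of Neurod4 did not overlap, and replicate 3 gave the smallest difference. Neurog2 and Neurod1, both proneural, fell by 1.51 and 1.89, Myt1 and Myt1l, zinc finger factors of new neurons, by 1.83 and 2.08, and Ebf1, Ebf2 and Ebf3, factors of migrating neurons, by 1.11, 2.06 and 1.72. Insm1 (-1.01), Neurod2 (-1.63), St18 (-1.61) and Nhlh1 (-0.53) did not pass without the replicate block but did with it, and 14 of the 18 were then lower. Neurog1 (-0.45) and Neurog3 (0.33) did not pass in either fit.

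Of 20 neuronal cytoskeleton genes, 11 fell and 0 rose, with a median of -1.02, and 15 were lower with the replicate block. Tubb3, the neuronal beta-tubulin, was 13.26, 12.61 and 13.46 in let-7a and 11.29, 11.55 and 11.55 with siSfpq added (log2 difference -1.65, SE 0.21, limma adjusted p = 0.00545). The neurofilament genes Nefl and Nefm fell by 1.97 and 1.87, whereas Nefh differed by 0.22 (SE 0.15). The microtubule-binding proteins Mapt (tau) and Map2 fell by 1.55 and 1.01, and Gap43, a protein of growth cones, by 1.51. Dclk1 and Kif5c, a microtubule-bound kinase and a kinesin motor, fell by 1.04 and 0.83.

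Of 21 genes of secretory granules and synaptic vesicles, 13 fell and 0 rose, with a median of -1.19, and 17 were lower with the replicate block. Scg2, a granin, was 12.74, 12.44 and 12.72 in let-7a and 11.48, 11.48 and 11.39 with siSfpq added, without overlap (log2 difference -1.19, SE 0.12, limma adjusted p = 0.00250). The other granins Chga, Chgb and Scg3 fell by 1.23, 1.78 and 1.72, the calcium sensor Syt1 by 1.38, the complexin Cplx1 by 1.51 and the prohormone convertase Pcsk2 by 1.48. Snap25 (-0.21, SE 0.39) and Vamp2 (-0.44, SE 0.21), which drive vesicle fusion, did not pass.

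Of 18 neuronal RNA-binding proteins and Rest cofactors, 5 fell and 0 rose, with a median of -0.33, and 8 were lower with the replicate block. Srrm4, which switches on neuronal microexons, was 11.90, 10.66 and 11.94 in let-7a and 9.77, 9.24 and 9.88 with siSfpq added (log2 difference -1.87, SE 0.40, limma adjusted p = 0.0333). Celf3, Elavl3, Elavl4 and Rbfox1, regulators of splicing and stability of neuronal RNA, fell by 2.10, 1.33, 1.44 and 1.33. Rest, the repressor of neuronal genes in other cells, was 10.94, 10.87 and 10.57 in let-7a and 11.39, 10.93 and 11.13 with siSfpq added, with overlapping samples (log2 difference 0.36, 95% confidence interval -0.02 to 0.73, limma adjusted p = 0.353).

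Of 16 genes of the noradrenergic programme, 5 fell, namely, the transcription factors Phox2a by 1.05, Hand2 by 1.69 and Isl1 by 1.43, the intermediate filament gene Prph by 0.99 and the nicotinic receptor subunit Chrnb4 by 1.38, and 0 rose. In the blocked fit 6 were lower and 1 higher, and without replicate 3 limma called 8 lower and 1 higher. Dbh, which makes noradrenaline, was 13.99, 13.49 and 14.05 in let-7a and 12.49, 11.91 and 12.55 with siSfpq added. These samples did not overlap, yet the difference of -1.53 (SE 0.44) did not pass (limma adjusted p = 0.0936, and 0.0594 with the replicate block). Th, the rate-limiting enzyme of catecholamine synthesis, differed by -0.10 (SE 0.10).

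Among 25 axon guidance genes 5 fell, the receptors Robo2, Robo3, Dcc, Unc5c and Plxna4, by 1.23, 2.07, 1.43, 1.69 and 1.39. With the replicate block 15 of the 25 were lower, the ligands Slit1, Slit2 and Slit3 among them (-0.68, -0.57 and -1.44). Of 19 neuronal ion channel genes, 3 fell, the calcium channel subunit Cacna2d1 by 1.39 and the potassium channels Kcnd3 by 1.32 and Kcnc1 by 0.93. Kcnd3 lost its call and turned to 0.021 when dim probes were not filtered. With the replicate block 10 of these 19 were lower.

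Some patterning genes of the neural tube were also called lower. Of 18 Notch pathway genes, Dll3, a Notch ligand of committed neuronal precursors, fell by 1.48 (limma adjusted p = 0.0354), and the list had a median of -0.16, with 4 members lower with the replicate block. The Notch target Hes5 was 8.29, 7.47 and 8.09 in let-7a and 6.82, 7.15 and 6.72 with siSfpq added, without overlap (limma adjusted p = 0.0865, and 0.0422 with the replicate block). Of 17 ventral neural tube and Hedgehog genes, 2 fell, Olig2 among them. Olig2, a factor of ventral progenitors, was not well above background on any array of let-7a + siSfpq and was at least 2.42-fold lower (limma adjusted p = 0.0421). On the authors' values it differed by -0.61 and was not called (limma adjusted p = 0.0630). The call was also lost without replicate 1, with only the 2 conditions and without the filter on dim probes (limma adjusted p = 0.0664, 0.0525 and 0.0772). In the blocked fit 5 members of this list were lower and 1 was higher. Of 17 neural progenitor transcription factors, Sox11 fell by 0.74, and 5 were lower with the replicate block. Sox2, shared by progenitors and stem cells, differed by -0.52 (limma adjusted p = 0.181, and 0.0356 with the replicate block), and Otx2 by 0.03 (SE 0.16). The retinoic acid binding protein Crabp1 was 11.57, 10.71 and 11.50 in let-7a and 9.17, 9.19 and 8.96 with siSfpq added (log2 difference -2.15, SE 0.28, limma adjusted p = 0.00562). Its relative Crabp2 fell by 0.76, and these were the called members of 19 retinoic acid pathway genes, whose median was 0.11, while 2 others were higher with the replicate block.

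Among lists outside the nervous system, members that rose were found for epithelia, the primitive streak and stem cells, against the 0.813% of all genes called higher. With the replicate block 5.48% of all genes were higher, and without replicate 3 it was 12.6%. Of 20 epithelial junction genes, 4 rose and 0 fell, with a median of 0.73. With the replicate block 12 rose, the occludin gene Ocln (1.46) and the desmosome gene Dsp (0.78) among them. Cdh1, which encodes E-cadherin, was 9.86, 10.42 and 10.05 in let-7a and 11.10, 10.93 and 11.18 with siSfpq added, a rise of 1.95-fold without overlap (SE 0.16 on the log2 scale, limma adjusted p = 0.0155). Esrp1, the paralogue of Esrp2, was 4.68, 5.21 and 4.78 in let-7a and 7.25, 6.01 and 7.27 with siSfpq added, and its difference of 1.95 did not pass (limma adjusted p = 0.0688, 0.0244 with the replicate block and 7.45e-05 without replicate 3). Without replicate 3, 15 of the 20 were called higher. Of 22 mesenchymal and matrix genes, Lama1, a laminin of basement membranes, rose by 0.85 and 0 fell, and 5 were higher and 2 lower with the replicate block. The genes of the E-cadherin repressors Snai1 and Zeb1 differed in opposite directions, by 0.79 and -0.51, and did not pass but did with the replicate block and without replicate 3.

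Of 17 mesendoderm genes, 5 rose and 0 fell, with a median of 0.60, and 6 were higher with the replicate block. T, the transcription factor of the primitive streak, was 7.75, 8.02 and 7.84 in let-7a and 9.95, 8.82 and 10.26 with siSfpq added, a rise of 3.50-fold without overlap (SE 0.36 on the log2 scale, limma adjusted p = 0.0257). The Wnt ligand gene Wnt3 rose by 1.79, the caudal homeobox gene Cdx1 by 1.44, the growth factor gene Fgf8 by 1.01 and the organizer gene Gsc by 0.83. Eomes (0.96) did not pass but did with the replicate block and without replicate 3, and the endoderm genes Gata6 (0.04) and Foxa2 (-0.05) passed in neither fit. Of 21 Wnt targets and regulators, 4 rose, namely, Sp5, the stem cell receptor Lgr5 by 1.16, Wnt6 by 1.52 and the Wnt antagonist Dkk4. Dkk4 was not well above background on any let-7a array and was at least 2.06-fold higher (limma adjusted p = 0.0354). This call was lost with normexp and on the authors' values (limma adjusted p = 0.196 and 0.154). It was also lost without replicate 1 and without the filter on dim probes (limma adjusted p = 0.0578 and 0.0755). Wnt5a fell by 0.57. Axin2, a general Wnt target, differed by 0.15 (SE 0.17). In the blocked fit 6 members were higher and 2 lower.

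Of 21 pluripotency genes, 3 rose and 0 fell, with a median of 0.39, and 5 were higher and 1 lower with the replicate block. The growth factor gene Fgf4 rose by 1.29, the chromatin factor gene Utf1 by 0.88 and the zinc finger gene Klf2 by 0.69. The core factors Pou5f1 and Nanog differed by 0.16 (SE 0.15) and 0.16 (SE 0.10), with overlapping samples.

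Among 20 p53 target genes 3 rose, the adhesion gene Perp by 1.28, the death receptor gene Fas by 0.99 and the cyclin gene Ccng1 by 0.63, and the median was 0.19, with 5 higher and 2 lower with the replicate block. Cdkn1a, the cell cycle inhibitor p21, was 6.02, 5.43 and 5.91 in let-7a and 7.16, 5.88 and 6.87 with siSfpq added, with overlap, and did not pass (log2 difference 0.85, limma adjusted p = 0.190, 0.0244 with the replicate block and 0.00646 without replicate 3). Of 25 genes of DNA replication and mitosis, Cdt1, which licenses replication origins, rose by 0.48 and 0 fell. A difference above 0 was seen in 24 of them, as in 10745 of all 19569 genes. Their median was 0.24, and the 3 samples gave 0.39, 0.08 and 0.33. In the blocked fit 4 of the 25 were called higher, and without replicate 3 it was 17. Of 20 ERK feedback and immediate early genes 0 passed in the limma fit, and 7 were higher with the replicate block, among them Spry4 (1.65), Spry2 (0.81) and Dusp6 (0.47), which dampen the ERK cascade.

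In the limma fit 0 passed among 17 YAP targets, 11 interferon-stimulated genes, 20 cholesterol synthesis genes, 20 genes of the amino acid and ER stress response and 22 SR and hnRNP splicing factors. Their medians were 0.19, 0.06, 0.04, 0.19 and -0.01, those of the interferon, stress and splicing lists turning sign in 1, 1 and 3 of 16 other settings. The median of the stress list was -0.16 in replicates 1 and 2 and -0.15 in replicate 4 against 0.70 in replicate 3, and without replicate 3 limma called 6 of its members lower and 2 higher. With the replicate block, 1 YAP target and 2 interferon-stimulated genes were called higher, 1 cholesterol gene was called lower, and no member of the stress and splicing lists passed.

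The genes known as let-7 targets lay on both sides of 0. Of 26 measured, 0 passed in the limma fit, 13 were below 0 and 13 above, and the median was -0.02, which turned positive in 5 of 16 other settings. With the replicate block 2 were higher and 1 lower, against 5.48% and 6.75% of all genes. Without replicate 3 limma called 7 higher and 5 lower, against 12.6% and 12.2% of all genes. Hmga2, a chromatin protein of stem cells, was 7.69, 8.29 and 7.66 in let-7a and 8.91, 8.63 and 8.83 with siSfpq added, without overlap, and passed with the replicate block (log2 difference 0.91, limma adjusted p = 0.112 without and 0.0476 with it). Lin28a, which blocks let-7 processing, was 13.43, 13.69 and 13.71 in let-7a and 13.77, 13.77 and 13.90 with siSfpq added, without overlap, a difference of 0.20 whose 95% confidence interval was -0.05 to 0.46. The samples of Lin28b (0.11, 95% confidence interval -0.28 to 0.49) and of Igf2bp1 (0.04, 95% confidence interval -0.28 to 0.37) overlapped.

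The study named 12 genes, all measured here, with canonical let-7a sites close to Sfpq binding that depend on Sfpq. For this set it reported a joint rescue from let-7a by a Wilcoxon test, and RT-qPCR with another siRNA for some members. That test was not repeated here, and calls of single genes do not replace it. The median difference of the set from control was -0.24 in let-7a and -0.16 in let-7a + siSfpq. Between let-7a + siSfpq and let-7a, 11 of the 12 had a difference above 0, as had 10745 of all 19569 genes. Their median was 0.20, and 0 were called higher. The medians of the 3 samples were 0.27, 0.0015 and 0.22, and without replicate 3 limma called 4 higher and 1 lower. Map1b, a microtubule-associated protein of growing axons, fell by 0.52 (limma adjusted p = 0.0464), and Skil, a repressor of TGF-beta signals, differed by 0.34 and did not pass but did with the replicate block and without replicate 3. Of the 22 measured genes of microRNA processing and silencing, 0 passed in the limma fit and the median was -0.08, and 2 were higher and 1 lower with the replicate block. Dicer1, which cuts microRNA precursors, differed by -0.13 (SE 0.09) and the Argonaute gene Ago2 by 0.08 (SE 0.13). Mov10, a helicase that binds Argonaute, differed by 0.72 (limma adjusted p = 0.0772, and 0.0307 with the replicate block).

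The share called lower was higher among long genes than among short ones, as a description without a test. Lengths in the RefSeq annotation (GRCm38.p6) were at hand for 80.9% of the genes tested, 98.1% of those called higher and 96.5% of those called lower, and 14855 protein-coding genes were used. The median length was 46.7 kb for genes called lower, 22.9 kb for genes called higher and 22.2 kb for all. Among the 786 genes of 200 kb or longer, 11.2% were called lower and 0.382% higher, against 1.9% and 1.04% of the 4056 genes shorter than 10 kb. The median difference of the long genes was -0.25, and the 3 samples gave -0.29, -0.17 and -0.29. In the 3 bins up to 100 kb the medians lay between 0.01 and 0.05. In the 166 genes of 500 kb or longer the median was -0.50, and 28 were called lower and 1 higher. Of the 88 genes of 200 kb or longer called lower, 13 were in any of the 28 lists. Outside the neural lists the median of genes of 200 kb or longer was -0.23. Among genes above background on all 16 arrays it was -0.15, and 9.77% of 563 were called lower. Long genes are often genes of neurons, and the parts of length and of neuronal expression were not tested. The length bins were chosen after the values were seen, and genes are not independent replicates.

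**Figure D4:**
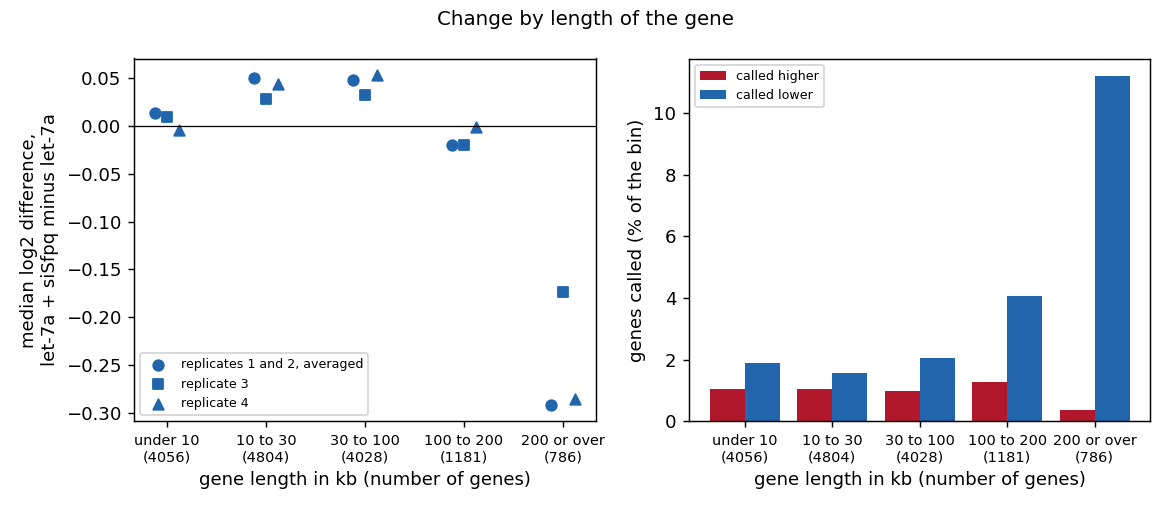
Median log2 difference between let-7a + siSfpq and let-7a in each replicate (left) and percentage of genes called (right, bars from 0) by the genomic length of protein-coding genes. Genes of 200 kb or longer have a median below those of all other bins in each replicate.

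Some of the longest genes called lower, chosen after their values were seen, include proteins of neuronal contacts and of RNA binding. Robo2 (1555 kb) fell by 1.23 and Rbfox1 (1528 kb) by 1.33. Tenm2 (1230 kb), a teneurin adhesion protein, fell by 0.89, and Ctnna2 (1098 kb), the neuronal alpha-catenin, by 1.74. The netrin receptor gene Dcc (1098 kb) fell by 1.43, the acid-sensing channel gene Asic2 (1088 kb) by 1.14 and the RNA-binding protein gene Rbms3 (1057 kb) by 1.65. In each of these, the difference was smallest in replicate 3. The long genes called higher were 3, the cadherin gene Cdh18 (0.83), Cmss1 (0.74) and Focad (0.38).

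The called genes were then set beside the effect of siSfpq in cells without the mimic, which rests on the other 8 arrays. There, 1121 genes were higher (5.73%) and 1325 lower (6.77%) in siSfpq than in control. Of the 159 genes called higher with the mimic, 155 were above 0 without it and 118 were called higher there too. Of the 395 called lower, 384 were below 0 without it and 263 were called lower there too. None of the 554 was called in the opposite direction. The medians without the mimic were 0.77 for the 159 and -0.91 for the 395. Samples of 1 replicate number deviate together in both comparisons, so these counts are a description.

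**Figure D5:**
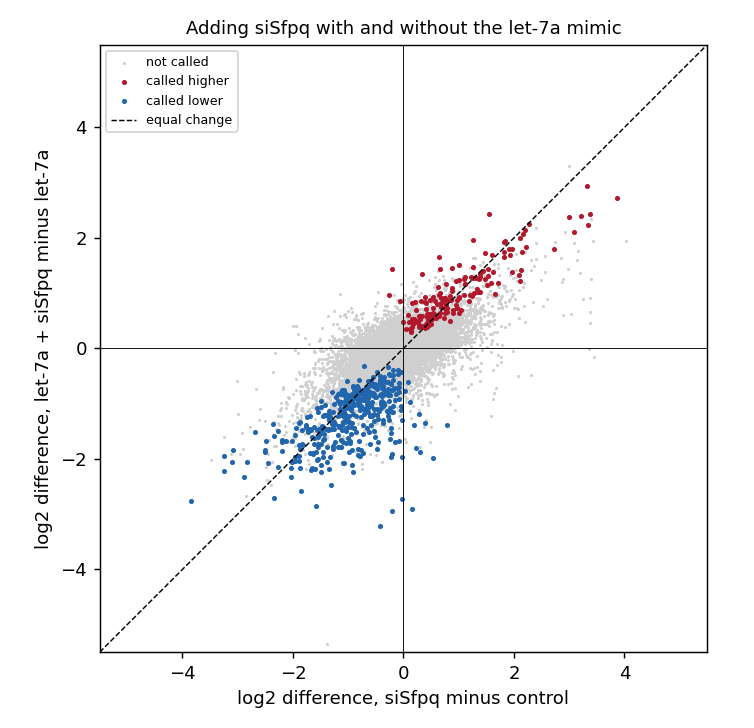
Log2 difference of each gene when siSfpq was added with the let-7a mimic (vertical axis) and without it (horizontal axis), with genes called in the comparison with the mimic in colour and equal change as a dashed line. Of the called genes, 155 of 159 higher and 384 of 395 lower have the same sign without the mimic.

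The levels in all 4 conditions are given side by side only, since the let-7a samples enter each comparison. Mean log2 levels of Tubb3 were 11.71 for control, 13.11 for let-7a, 10.27 for siSfpq alone and 11.46 when both were added. In the same order, those of Neurod4 were 4.75, 7.16, 1.66 and 5.33 and those of Scg2 were 10.04, 12.64, 9.33 and 11.45. Neurod4 was not well above background on any siSfpq array. In these 3 falling genes the level with both oligonucleotides lay between those of let-7a and of siSfpq. For the 395 genes called lower, the median difference from control was 1.15 in let-7a and -0.01 in let-7a + siSfpq. Among the rising genes, the means of Epha1 were 7.40, 6.42, 10.61 and 8.81 and those of T were 10.16, 7.87, 12.07 and 9.68. For the 159 genes called higher, the median difference from control was -0.36 in let-7a and 0.46 in let-7a + siSfpq.

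Whether siSfpq acted differently with and without the mimic was tested as its effect with the mimic minus that without. In the limma fit 0 genes passed, with 1182 at an unadjusted p under 0.05. With the replicate as a block 4 genes passed, 0.0204% of those tested. Without replicate 3, 4069 genes passed, and with arrays 1 and 2 counted separately 157 passed. Among genes above background on all arrays, the differences furthest below 0 were in Ptchd1 (-2.81), Rnf182 (-2.44) and Sybu (-2.04). Sybu, syntabulin, which links vesicles to kinesin, fell by 1.80 with the mimic and differed by 0.24 without it (limma adjusted p = 0.714), but the difference between these effects did not pass (limma adjusted p = 0.716). The differences furthest above 0 were in Pmepa1 (1.74), LOC102642338 (1.68) and Gm14243 (1.68). That of LOC102642338 had an SE of 1.78 and turned to -0.40 without replicate 4.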

How the data were processed

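Total RNA of P19 cells was labelled with Cy3 and hybridised to 16 single-colour Agilent mouse arrays, 4 for each condition. Scanner files of all arrays were deposited (Feature Extraction 10.7.3.1), and their background-subtracted, processed intensity was used, beside a table of log2 values that the authors had quantile normalized and that served as an alternative. The methods name 3 replicates and 4 arrays per condition were deposited. Outlier spots were left out, log2 intensities were quantile normalized over 16 arrays, spots of a probe and then probes of a gene were averaged, and a probe was kept where every array of some condition had it well above background. Arrays 1 and 2 of a condition had a robust SD of 0.0735 to 0.0977 on the log2 scale, against 0.0889 to 0.0939 between spots of 1 probe on 1 array and 0.137 to 0.177 between arrays 1 and 4, and were averaged. Condition means were fitted in limma 3.58.1 (R 4.3.3) with an intensity trend, over 12 samples, with Benjamini-Hochberg adjustment over all genes and a threshold of 0.05. Samples with the same replicate number deviated together, with correlations of 0.293 to 0.713 in 18 pairs against -0.628 to 0.18 in 36 pairs with other numbers, so that a fit with the replicate as a block was also run. Replicates 1 and 2 lie on 1 slide and replicates 3 and 4 on another. The number of arrays limits the precision. The script was tested on simulated data with independent noise, which did not include the shared deviation of replicates or a distant replicate. Named genes are Sfpq and its paralogues, the 12 largest rises and falls, the 3 largest bounds per direction, list members and the 3 largest departures from additivity per direction. Dcn, Ecel1, Pdlim3 and the genes outside the lists that are named for their length were chosen after their values were seen. Some genes are not reported here. The lists and members were chosen with earlier results of these data known. Other settings tried were a 75th percentile scaling, background correction by normexp (offset 50), other filters and probe rules, blocks for replicate or slide, and leaving out replicates.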

Additional observations from a re-analysis of the deposited data

Results flagged for a closer look

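In the fit with the replicate as a block, the effect of siSfpq with the mimic differed from that without it in 4 genes (limma). The difference was -2.81 on the log2 scale for Ptchd1 (SE 0.288, adjusted p = 0.019 by limma), where siSfpq changed the level by -1.23 with the mimic and 1.58 without it. It was -2.44 for Rnf182 (SE 0.244, adjusted p = 0.019 by limma), with -0.80 and 1.64. It was -1.7 for Ecel1 (SE 0.185, adjusted p = 0.0221 by limma), with -1.302 and 0.40, and -1.38 for Pdlim3 (SE 0.156, adjusted p = 0.0232 by limma), with -0.64 and 0.74. Without the block the limma adjusted p values were 0.299, 0.195, 0.821 and 0.797 in the same order.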

How the results depend on the processing

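Calls of genes higher and lower with siSfpq, 159 and 395, kept within 1.5 times these counts under scaling to the 75th percentile (142 and 330), normexp (187 and 571), the authors' values (163 and 499), the brightest probe per gene (178 and 422), the slide as a block (206 and 457) and no intensity trend (138 and 356). Without the filter on dim probes, 74 were higher and 186 lower, over 29948 genes tested, and with a change of at least 1 on the log2 scale beside the adjusted p 65 and 254. The replicate block, which pairs samples by number, gave 1073 and 1321, and counting arrays 1 and 2 separately gave 1165 and 1417. A fit of only the 2 conditions gave 103 higher. Without both arrays 1 and 2, limma called 0 and 0 genes, with 399 and 692 at an unadjusted p under 0.05. Leaving out a replicate gave 0 to 2465 higher and 0 to 2397 lower, the lowest without replicate 4 (278 and 680 at an unadjusted p under 0.05) and the highest without replicate 3. The 2446 genes called for siSfpq against control became 1321 without the filter, 7218 with the replicate block, 6776 with arrays separate, 898 with the log2 limit, 0 in limma without both arrays 1 and 2 (1895 at an unadjusted p under 0.05), 0 in limma with only the 2 conditions (4873) and 0 to 9232 when a replicate was left out. For the difference of effects, 0 calls in limma became 4 without the filter, 4 with the replicate block, 157 with arrays separate and 0 to 4069 when a replicate was left out, the highest without replicate 3. The Sfpq difference lay between -0.62 and -0.57 when a replicate was left out. It was -0.50 without both arrays 1 and 2, which are averaged as 1 sample (limma adjusted p = 0.969). It passed in limma with arrays separate (-0.61, adjusted p = 0.0137), with only the 2 conditions (-0.58, adjusted p = 0.0349) and without replicate 3 (-0.61, adjusted p = 0.00117). Of 105 called genes that are named or in a list, 64 lost their call without the filter and kept their sign, and 1 more, Kcnd3, changed sign. Of the same 105, calls were lost by 30 with only the 2 conditions, 17 without a trend and 14 with 75th percentile scaling. They were lost by 11 on the authors' values, 7 with normexp and all 105 without replicate 4. Of the 24 largest changes, 14 moved by over 1.5-fold with normexp and 7 on the authors' values. Kcnd3 turned from -1.32 to 0.021 without the filter, and the difference of effects of LOC102642338, 1.68, ranged from -0.40 (without replicate 4) to 2.60 (without replicate 3) when a replicate was left out. The cause was not tested.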
